A study of Mus musculus with 6 samples.

Results

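The genes described here encode the proteins of the cytosolic ribosome. They were chosen by symbol: protein-coding genes whose mouse symbols begin with Rpl or Rps and a number, with Rpsa, Rplp0, Rplp1 and Rplp2 added and the Rps6k kinases and names with -ps left out. Of 54752 rows in the count table, 89 matched, of which 6 were annotated as pseudogenes, and 83 members remained, 51 of the large and 32 of the small subunit. RNA-seq had been made from mouse embryonic fibroblasts (MEFs), cells grown out of mouse embryos, with 3 libraries from cells given a non-targeting control shRNA (shNT) and 3 from cells given an shRNA to p19ARF (shARF). Both groups used a line described as p53 deleted, received their hairpin by lentivirus and carried the tag neo in their titles. The labels gave the genotype as WT for shNT and as ARF knockdown for shARF. WT goes against the description of the line for shNT, and the text follows the description of the line. The titles call the replicates biological without saying whether they were separate cultures or infections, so the spread behind each p-value is that of these libraries and may be technical.

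A ribosome joins a small subunit, which reads the mRNA, to a large subunit, which makes the peptide bond, and most of their proteins are present in one copy each. Mouse cells transcribe nearly every one of these proteins from a single intron-containing gene, while the genome also holds many processed pseudogenes made from their mRNAs. Many of the mRNAs start with a C and a run of pyrimidines, the 5′ terminal oligopyrimidine (TOP) tract, through which mTOR and LARP1 control their translation. ARF, one product of the Cdkn2a locus, is a nucleolar protein known for activating p53 and for restraining ribosome production, and free ribosomal proteins such as RPL5 and RPL11 bind MDM2, the ligase that degrades p53.

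The starts of the genes were read from the RefSeq promoter table (build GRCm38.p6), which held 63 members. A gene with several starts there was counted as holding the tract if any of them did. A C followed by at least 4 bases of C or T on the transcribed strand, beginning within 5 bases of the start, was found in 29 of 63 members (46.0%) and in 5718 of 27025 genes in the table (21.2%). It was found in 17 of 39 large and 12 of 24 small subunit members. Of the members that were higher in shARF, by the test given further on, 4 of 10 held it, against 7 of 17 that were lower and 18 of 34 that were not called. Each window here runs from 15 bases before to 15 bases from the annotated start, 5′ to 3′ on the gene's strand, with the tract in capitals. For a gene with several starts, a start that held the tract was shown where there was any. Rps6 and Rps24 are shown as examples of a tract, and the paralog pairs Rpl22l1/Rpl22 and Rpl39l/Rpl39 because the results turn on them.
Rps6, chr4:86857353-86857382, minus strand: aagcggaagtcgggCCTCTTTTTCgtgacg
Rps24, chr14:24490663-24490692, plus strand: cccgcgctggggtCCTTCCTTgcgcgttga
Rpl22l1, chr3:28805493-28805522, plus strand: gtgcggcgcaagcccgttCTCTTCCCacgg
Rpl22, chr4:152325711-152325740, plus strand: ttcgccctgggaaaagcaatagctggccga
Rpl39, chrX:37085208-37085237, minus strand: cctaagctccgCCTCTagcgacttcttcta
Rpl39l, chr16:10170213-10170242, plus strand: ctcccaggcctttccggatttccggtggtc
By this rule Rpl22l1 and Rpl39 had the tract and Rpl22 and Rpl39l did not. Pyrimidine runs that begin farther than 5 bases from the start, as in the Rpl39l window, were not counted.

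Libraries held 40261944 to 47023082 counts, of which the members took 2.37% to 2.68%. Cdkn2a, the targeted gene, measured 230.0, 218 and 222 CPM (counts per 1e+06 counts of the library, scaled by TMM) in shNT and 95.8, 103 and 106 CPM in shARF, a log2 fold change of -1.13 ± 0.0445 (SE; edgeR adjusted p = 2.19e-06). Gene counts cannot separate ARF from the other product of this locus. All 10 fibroblast markers examined were detected, with a summed level of 16437 to 17878 CPM in shNT and 19869 to 20009 CPM in shARF. Of these, 6 were higher (Col1a1 by 0.40, Col3a1 by 0.28, Fap by 1.12, Thy1 by 0.37, and Col1a2 and Vim by 0.12 each on the log2 scale), while Pdgfra fell by 2.45 and Dcn by 2.12. Markers of other cell types were low, apart from Map2 and Tubb3 of the neural list, but moved as well. The summed level of 4 epithelial markers was 15.3 to 17.3 CPM in shNT and 5.25 to 5.69 CPM in shARF, with Krt18 at 12.7 and 0.151 CPM and Cdh1 at 2.14 and 4.8 CPM on average. That of 5 macrophage and blood markers was 6.70 to 7.55 and 1.5 to 1.99 CPM, with Csf1r at 4.48 and 0.338 CPM and Adgre1 at 0. That of 4 endothelial markers was 2.41 to 2.88 and 2.81 to 3.62 CPM, with Tek at 2.15 and 0.067 CPM, Kdr at 0.281 and 3.13 CPM and Cdh5 at 0. That of 6 muscle markers was 0.606 to 1.23 and 1.27 to 1.92 CPM, with Des at 0.0885 and 0.390 CPM (higher by 2.11) and Myod1, Myog and Actn2 at 0. That of 4 neural markers was 70.0 to 74.1 and 93.6 to 101.9 CPM, with Sox2 and Sox10 at 0. Map2, at 44.7 and 58.8 CPM, and Tubb3, at 27.5 and 38.9 CPM, made up that sum and were higher in shARF (by 0.40 and 0.50 on the log2 scale). The part of all these markers in the members' results was not tested.

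Across the gene family, differences between shARF and shNT were small and went in both directions. Of 81 members with enough counts to test, 15 were higher in shARF, 18 were lower and 48 did not pass (edgeR quasi-likelihood F test, adjusted p under 0.05). Together the called members were 40.7% of those tested, whereas 56.4% of all 17128 genes tested were called, 29.0% as higher and 27.4% as lower. On the log2 scale the median change was -0.02 for the 49 large and -0.02 for the 32 small subunit members tested, beside -0.004 over all genes tested. The median size of the change, whatever its sign, was 0.10 on the log2 scale for members and 0.34 for all genes tested, and 63 of 81 members (77.8%) lay within 0.2 of zero against 32.3% of all genes. Groups of 3 libraries did not overlap for 18 members that were higher and 23 that were lower, while 32.9% of all genes had groups apart as higher and 31.8% as lower, 64.6% in all. A single member, Rpl39l, was called with a change of at least 2-fold, where 14.4% of all genes were. All genes tested include many at lower levels than the members. With at least 5 CPM required in 3 libraries, 11230 genes and all 81 members were tested. In that fit, 67.9% of all genes were called, and 17 members were higher and 18 lower. Sizes of change were not compared at like levels. The split depended on the scaling: with library sizes alone, 6 members were higher and 44 lower, where 57.8% of all genes tested were called. Without shNT replicate 3, the library with the highest share of counts in members, 23 were higher and 15 lower, where 52.2% of all genes tested were called.

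**Figure D1:**
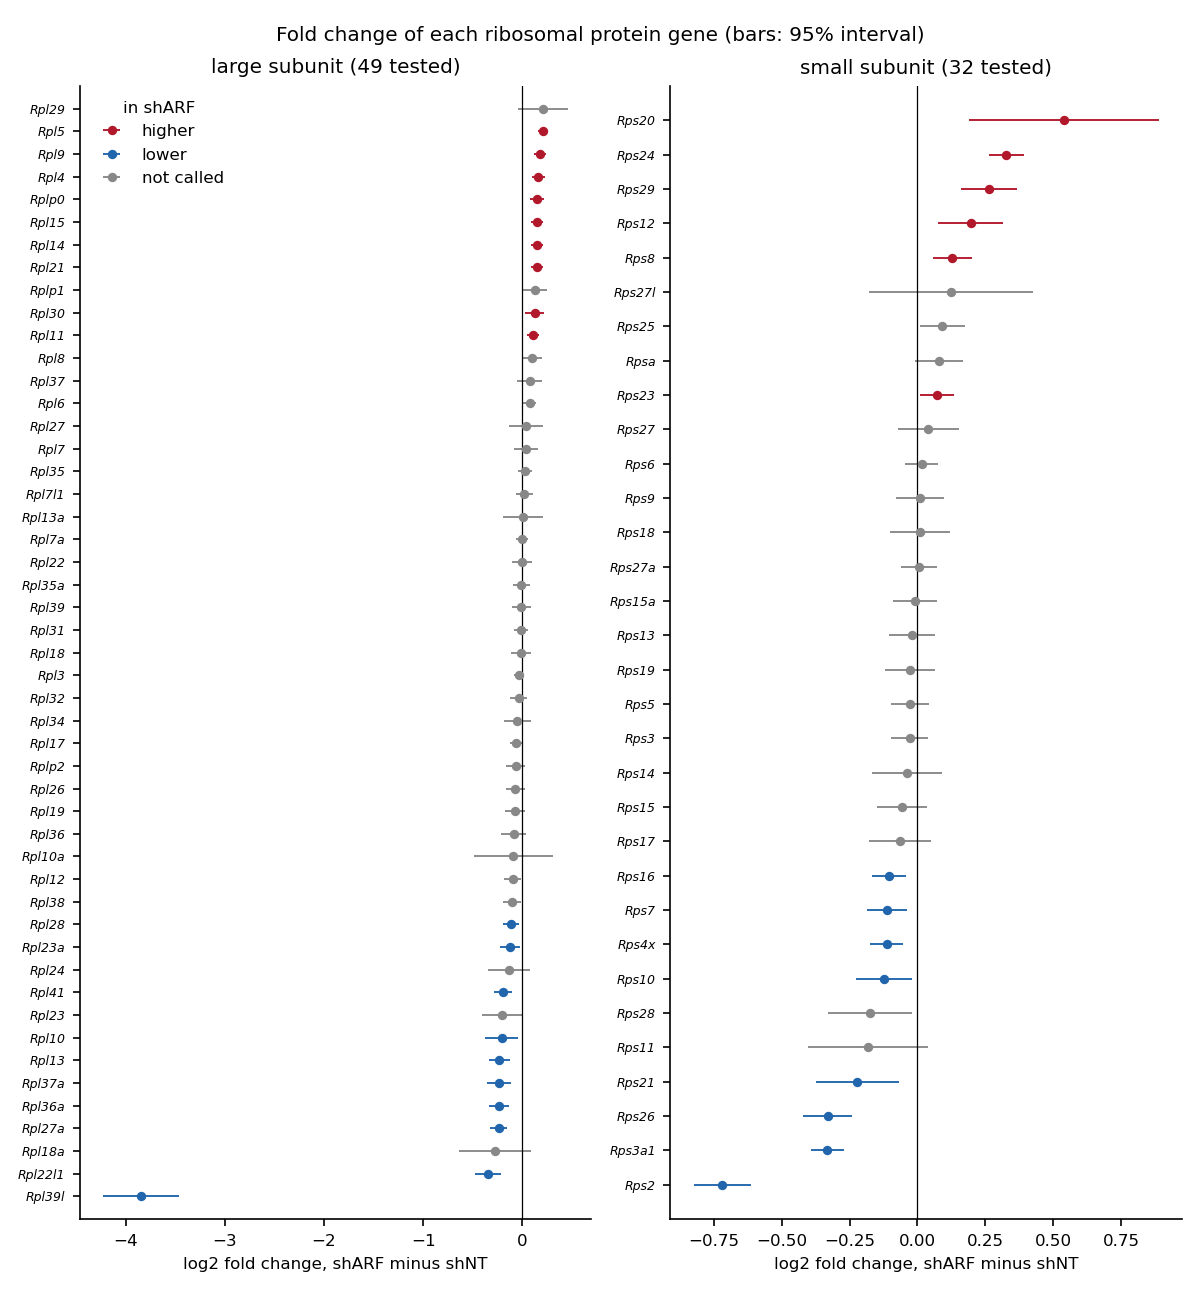
Log2 fold change of each tested member, shARF minus shNT, in the large (left, 49 genes) and small (right, 32 genes) subunit, with 95% intervals as bars and the edgeR call as colour. The horizontal scales differ because Rpl39l lies at -3.84, far from the other large subunit members, and Rps2 at -0.72 has the largest fall among small subunit members at its own locus.

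The proteins of the large subunit stalk, which recruits translation factors, were among the most abundant members. Rplp0, the base of the stalk, was at 1039, 1051 and 1119.6 CPM in shNT and at 1201, 1188 and 1174 CPM in shARF. It rose by 0.15 ± 0.0305 on the log2 scale (edgeR adjusted p = 0.00502), with no overlap between the groups. Rplp1, which pairs with Rplp2 at the tip, had the highest level per kilobase of transcript of all members, 914 CPM per kb over the 6 libraries. Its values of 411, 423 and 475 CPM in shNT and 483, 478 and 468 CPM in shARF overlapped (0.13, 95% interval -0.00 to 0.25). Rplp2 was at 229 ± 12.5 and 219 ± 1.76 CPM (SD, n = 3 each; -0.07, 95% interval -0.16 to 0.03), and neither partner passed the test. Without shNT replicate 3, the Rplp1 difference was 0.19 and passed (adjusted p = 0.00147).

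Of the large subunit proteins known to bind MDM2, Rpl5 and Rpl11 rose and Rpl23 and Rpl26 did not pass the test. Rpl5, which with Rpl11 carries 5S rRNA into the ribosome, was at 448, 453 and 455 CPM in shNT and at 527, 517 and 519 CPM in shARF. The groups were well apart, and the log2 fold change was 0.20 ± 0.018 (edgeR adjusted p = 9.03e-05). Rpl11 was at 233, 231 and 242 CPM and at 255, 251 and 253 CPM, a difference of 0.11 ± 0.0251 (edgeR adjusted p = 0.00987). Rpl23 varied within shNT, at 279, 235.3 and 306 CPM. Its shARF libraries, at 242, 234.9 and 237 CPM, lay inside that range or just below it. Its difference of -0.20 (95% interval -0.41 to 0.01) passed without shNT replicate 2, the lowest of its group (-0.30, adjusted p = 0.00289). Rpl26 averaged 237 ± 12.1 CPM with the control hairpin and 225 ± 4.58 CPM with shARF (-0.07, 95% interval -0.17 to 0.02).

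Rpl4 and Rpl9, structural proteins of the large subunit, rose as well. Rpl4 went from 852, 863 and 907 CPM to 985, 981 and 971 CPM (0.16 ± 0.0263, edgeR adjusted p = 0.00169), and Rpl9 from 264, 264 and 278 CPM to 307, 305 and 303 CPM (0.18 ± 0.0266, edgeR adjusted p = 0.0011). In both genes every shARF library lay above every shNT library. Rpl27a, Rpl36a and Rpl37a fell by the same measure. Rpl27a went from 304, 307 and 329.9 CPM to 272, 265 and 262 CPM (-0.24 ± 0.0358, edgeR adjusted p = 0.00125), and Rpl36a from 88.5, 91.8 and 92.5 CPM to 81.1, 75.9 and 74.5 CPM (-0.24 ± 0.0418, edgeR adjusted p = 0.00267). Rpl37a, a zinc-binding protein, went from 158, 158 and 177 CPM to 142, 141 and 135 CPM (-0.24 ± 0.0506, edgeR adjusted p = 0.00649). Groups were apart in all 3 of these genes, each with a level 1.18-fold lower in shARF. Rpl10, a late-joining protein at the core of the large subunit, was called lower (-0.21 ± 0.0694, edgeR adjusted p = 0.0389) although its libraries overlapped, at 249, 218 and 239.7 CPM in shNT and 196, 193 and 222 CPM in shARF. Its adjusted p was between 0.0957 and 0.115 without shNT replicate 1 or 3 or without shARF replicate 1 or 2.

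In the small subunit, Rps24, Rps29, Rps20 and Rps12 had the largest rises. Rps24, one of the genes mutated in Diamond-Blackfan anaemia, an inherited failure of red cell production, was at 253, 261 and 267 CPM in shNT and at 333, 322 and 324 CPM in shARF. The groups did not overlap, and the change of 0.33 ± 0.0268 on the log2 scale was a 1.25-fold rise (edgeR adjusted p = 6.25e-05). Rps29, a zinc-binding protein of the head of the subunit, rose from 125, 128 and 139 CPM to 159, 158 and 155 CPM (0.26 ± 0.0432, edgeR adjusted p = 0.00182). Rps20 was at 203, 207 and 218 CPM in shNT and at 347, 230.1 and 335 CPM in shARF, so 1 shARF library lay close to the controls. Its change of 0.54 ± 0.147 passed (edgeR adjusted p = 0.0179) but had the widest interval among the called small subunit members, 0.19 to 0.89. The Rps20 call was lost without shNT replicate 1 (adjusted p = 0.0563), shNT replicate 2 (0.052), shARF replicate 1 (0.0594) or shARF replicate 3 (0.0618). Rps12 rose from 221, 222 and 247 CPM to 275, 258 and 258 CPM (0.20 ± 0.0505, edgeR adjusted p = 0.0144), with adjusted p = 0.0504 without shNT replicate 2.

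Rps26, which touches the mRNA ahead of the start codon, fell from 352, 353 and 385 CPM to 290.1, 289 and 288 CPM. Every shARF library was below every shNT library, with a change of -0.33 ± 0.0372 (edgeR adjusted p = 0.000297). Rps4x, the X-linked form of its protein, fell from 525 ± 16.4 to 485 ± 1.45 CPM (-0.11 ± 0.0256, edgeR adjusted p = 0.00825). Other members with known roles outside or at the edge of translation were not called. Rps6, the substrate of the S6 kinases downstream of mTOR, was at 414, 414 and 429.5 CPM in shNT and 433, 424 and 415 CPM in shARF (0.02, 95% interval -0.04 to 0.08). Rps27a, made as a fusion with ubiquitin, was at 272 ± 7.87 and 274 ± 4.6 CPM (0.01, 95% interval -0.06 to 0.07), and Rps19, also mutated in Diamond-Blackfan anaemia, at 229.5 ± 11.3 and 225 ± 4.18 CPM (-0.03, 95% interval -0.12 to 0.06). Rps14 was at 266 ± 21.2 and 259 ± 1.82 CPM (-0.04, 95% interval -0.17 to 0.09), and Rpsa, also known as the laminin receptor, at 889 ± 41.9 and 939 ± 23.2 CPM (0.08, 95% interval -0.01 to 0.17). Rps14 overlaps a gene on the opposite strand with counts of similar size, and without strand their reads cannot be told apart. The Rpsa difference passed without shNT replicate 3 (0.12, adjusted p = 0.024), as did that of Rpl7, a large subunit protein (0.10, adjusted p = 0.0244).

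Rps2 and Rps3a1 had the largest falls among small subunit members at their own loci, and for both the direction turned when the counts of their pseudogene copies were added. Rps2, a protein at the mRNA entry of the small subunit, was at 681, 702 and 759 CPM in shNT and at 441, 441 and 419 CPM in shARF. Its groups were far apart, with a log2 fold change of -0.72 ± 0.044 (edgeR adjusted p = 1.54e-05). Pseudogene rows that matched the Rps2 transcript at 90% identity or more, of which 54 had counts, summed to 861, 911 and 921 CPM in shNT and to 1608, 1546 and 1543 CPM in shARF. The copies held 55.7% of the counts of the gene and its copies in shNT and 78.3% in shARF. Of 38 Rps2 copies tested, 20 were higher and 4 lower, beside 29.0% and 27.4% of all genes tested. The most abundant, Rps2-ps10, matched at 99.4% identity and went from 187 ± 6.65 to 424 ± 7.1 CPM (1.18, edgeR adjusted p = 4.66e-07). With the copies added, Rps2 was 1616 ± 63.7 CPM in shNT and 1994 ± 46.2 CPM in shARF, higher by 0.30 ± 0.0324 (edgeR adjusted p = 0.000229).

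Rps3a1, a small subunit protein that contacts initiation factor eIF3, showed the same turn. Its own locus was at 504, 507 and 529 CPM in shNT and at 416, 407 and 402 CPM in shARF (-0.33 ± 0.0255, edgeR adjusted p = 4.67e-05). Its 7 copies with counts summed to 141, 146 and 141 CPM in shNT and to 332, 327 and 334 CPM in shARF, or 21.8% and 44.8% of the counts of the gene and its copies. With the copies added, the sum went from 658 ± 10.4 to 737 ± 8.35 CPM, higher by 0.16 ± 0.0196 (edgeR adjusted p = 0.000384). The most abundant copies, Rps3a3 and Rps3a2, are near-identical to the coding sequence of the gene. Rps3a2 differs at 4 of 792 aligned bases (99.5% identity) and Rps3a3 at 9 of 795 (98.9%). The lines that follow show bases 201 to 260 of the Rps3a1 coding sequence and the matching bases of both copies, from the GENCODE M21 transcripts (GRCm38), because a read from this stretch can be told apart only by the capital letters, which mark the positions where any of the 3 differ.
Rps3a1, gene at chr3:86137940-86142702, minus strand: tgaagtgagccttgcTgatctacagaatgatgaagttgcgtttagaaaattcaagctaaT
Rps3a2, gene at chr14:88123017-88123808, minus strand: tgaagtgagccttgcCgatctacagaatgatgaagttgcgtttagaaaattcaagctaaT
Rps3a3, gene at chr13:108670603-108671397, plus strand: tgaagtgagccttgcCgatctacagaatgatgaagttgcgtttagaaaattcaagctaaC
The sources used here do not say how reads that match several places were assigned. Reads from the gene and reads from its copies cannot be told apart in these counts, so the direction for Rps2 and Rps3a1 is uncertain.

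**Figure D2:**
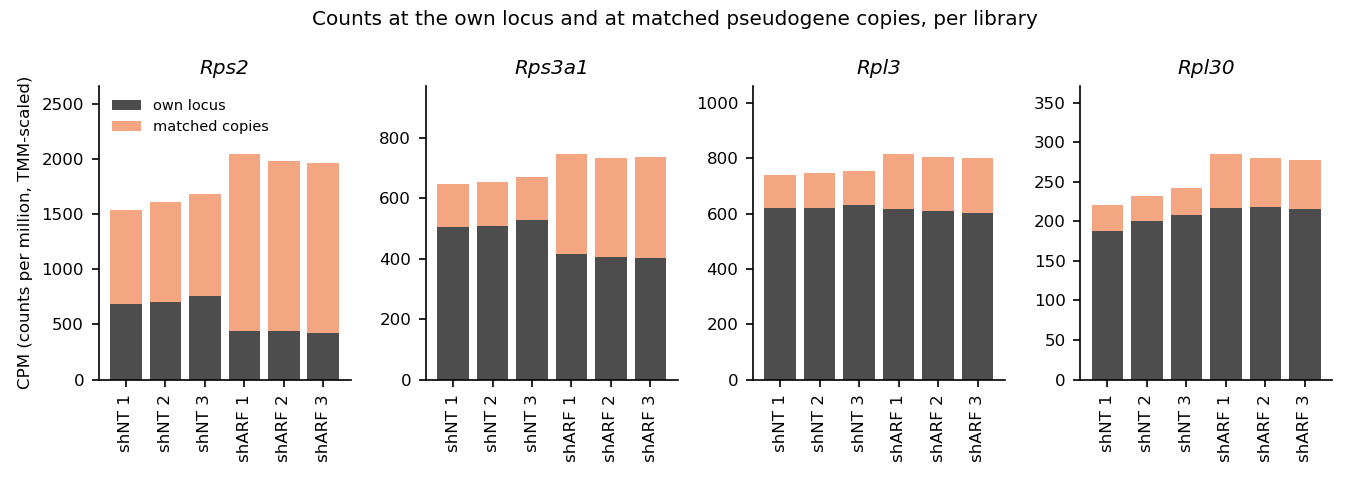
Stacked bars give, for each library, the CPM at the own locus (dark) and summed over matched pseudogene copies (light) for Rps2, Rps3a1, Rpl3 and Rpl30. In Rps2 and Rps3a1 the dark part is lower and the whole bar higher in each shARF library than in each shNT library.

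Copies were matched for other members too, and there they moved few calls, although in some they held most of the counts. In all, 951 pseudogene rows with a count matched 79 members at 90% identity or more. Of 476 copies tested, 75 were higher and 44 lower, where 56.4% of all 17128 genes tested were called (29.0% higher and 27.4% lower). With copies added, 19 members were higher and 20 lower, where 57.4% of all genes tested in that fit were called (29.0% higher and 28.4% lower). All 15 members called higher at their own locus were called higher with copies added, as were Rps2 and Rps3a1, while the other 16 called lower were called lower again. Of the 48 members not called at their own locus, 2 were higher and 4 lower with copies added. Rpl3, which lines the peptidyl transferase centre, went from -0.03 ± 0.019 at its own locus to 0.10 ± 0.0171 with copies added (edgeR adjusted p = 0.00201), its copies summing to 124 ± 2.77 CPM in shNT and 197 ± 2.28 CPM in shARF. Rpl30, named after its values were seen, rose at its own locus by 0.12 ± 0.0384 and with copies added by 0.27 ± 0.0348 (edgeR adjusted p = 0.000537). Adding only copies of at least 97% identity gave the same direction for Rps2 (0.32), Rps3a1 (0.17) and Rpl3 (0.11).

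**Figure D3:**
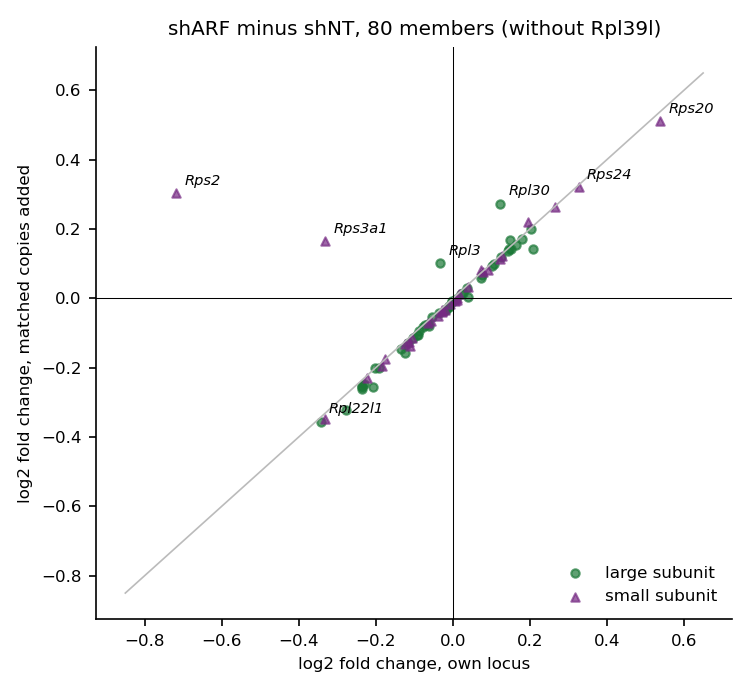
Each point is 1 of 80 tested members (Rpl39l left out), with the log2 fold change at its own locus on the horizontal and with matched copies added on the vertical axis; the grey line marks equal values. Most members lie on the line, while Rps2, Rps3a1, Rpl3 and Rpl30 lie above it.

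Paralogs of ribosomal proteins, which can replace the main form or are made in particular tissues, were compared with their main form within each library. Rpl39l, a paralog of the exit tunnel protein Rpl39 that is best known from the testis, had the largest change of any member. It was at 10.9, 11.1 and 10.8 CPM in shNT and at 0.603, 0.686 and 0.983 CPM in shARF, from 506, 537 and 444 counts and from 27, 30 and 44 counts. The level was 14.4-fold lower in shARF (log2 fold change -3.84 ± 0.16, edgeR adjusted p = 2.84e-06), and Rpl39l, at chr16:10170226-10174911, overlaps no other annotated gene. Rpl39 itself was at 169 ± 8.67 and 168 ± 2.76 CPM (-0.01, 95% interval -0.11 to 0.09), so that Rpl39l went from 6.79, 6.61 and 6.04 to 0.365, 0.402 and 0.589 counts per 100 of Rpl39. Of 4 germ cell markers, Sycp3 and Piwil1 were at 0 in every library. The summed level of all 4, nearly all of it from Ddx4, was 0.0823 to 0.291 CPM in shNT and 0.805 to 1.23 CPM in shARF, and the part of such cells in the Rpl39l result was not tested. Rpl10l and Rpl3l, paralogs known from testis and muscle, had no count in any library, which allows at most 0.0638 to 0.0745 CPM per library at a limit of 3 counts, for counting error only.

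Rpl22l1, whose protein is related to Rpl22, was also lower in shARF while Rpl22 was not called. Rpl22l1 was at 42.7, 44.8 and 44.9 CPM in shNT and at 36.9, 34.6 and 32.8 CPM in shARF (-0.34 ± 0.0543, edgeR adjusted p = 0.00157), and Rpl22 at 131 ± 5.36 and 130.4 ± 4.86 CPM. Per 100 counts of Rpl22, Rpl22l1 had 32.2, 33.2 and 36.0 counts in shNT and 27.2, 26.9 and 25.9 in shARF, with no overlap. Rpl36al, an intronless paralog outside the symbol rule, went the other way from Rpl36a: it rose from 62.5, 62.5 and 63.0 CPM to 85.6, 86.9 and 86.3 CPM (0.46 ± 0.0284, edgeR adjusted p = 1.59e-05). Per 100 counts of Rpl36a, Rpl36al had 70.7, 68.1 and 68.1 counts in shNT and 106, 114 and 116 in shARF. The order of the pair by counts was thus turned, Rpl36a being the higher in every shNT library and Rpl36al in every shARF library. Other tested genes had a median log2 fold change of 0.28 on chromosome 12, which holds Rpl36al, and of -0.13 on X, which holds Rpl36a. The part of these shifts in the ratio was not tested.

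In 3 other pairs the groups overlapped. Rps27l, known as a p53 target, had 49.5, 39.5 and 49.4 counts per 100 of Rps27 in shNT and 42.2, 53.1 and 51.6 in shARF, which overlap, and Rps27l alone was at 64.5 ± 9.89 and 70.2 ± 7.5 CPM (0.12, 95% interval -0.18 to 0.42). Rpl7l1 had 37.1, 35.0 and 33.0 counts per 100 of Rpl7 in shNT and 33.5, 35.5 and 34.5 in shARF. Rps27rt, outside the rule, stayed between 3.66 and 4.43 counts per 100 of Rps27 over all libraries. Among pseudogenes, which did not overlap between groups, Rps4l had 0.24 to 0.394 counts per 100 of Rps4x in shNT and 0.111 to 0.136 in shARF. Per 100 counts of Rps3a1, Rps3a2 had 10.2 to 11.0 in shNT and 22.0 to 23.0 in shARF, and Rps3a3 had 10.2 to 11.1 and 44.7 to 46.2. In 9 pairs with counts in every library, an exact two-sided permutation test of the log2 ratio over 3 against 3 libraries gave p = 0.1 in the 6 pairs whose groups were apart, which is the smallest p that this design allows, and 0.15 after adjustment over the 9 pairs. No pair could therefore pass at this number of libraries.

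**Figure D4:**
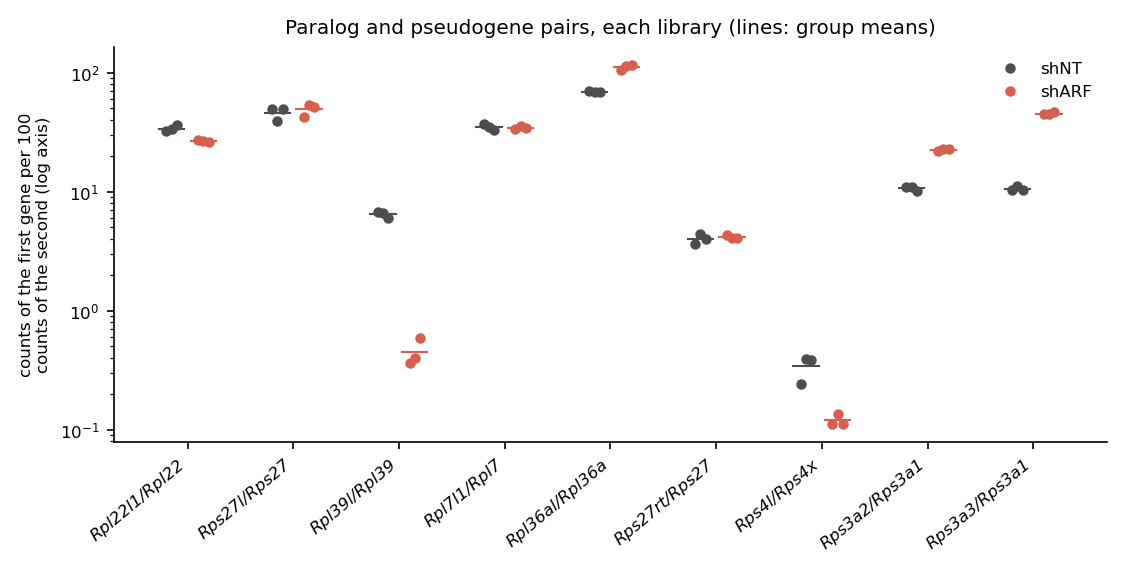
Counts of the first gene of each pair per 100 counts of the second, on a log axis, with 1 point per library and lines at the group means. Rpl39l/Rpl39, Rpl22l1/Rpl22 and Rps4l/Rps4x are lower in shARF, Rpl36al/Rpl36a and both Rps3a pairs higher, and the other 3 pairs overlap.

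The balance between the subunits was close to equal in the groups. Summed over all members, the level was 24255, 24522 and 26185 CPM in shNT and 25143, 24461 and 24398 CPM in shARF, so the groups overlapped. This depended on the scaling: with library sizes alone the sums were 25239, 25339 and 26848 CPM in shNT and 24299.6, 23664 and 23669.7 CPM in shARF, which do not overlap. Large subunit members summed to 15592 ± 628 CPM in shNT and 15592 ± 253 CPM in shARF, and small subunit members to 9395 ± 419 and 9076 ± 159.8 CPM. The ratio of large to small was 1.67, 1.66 and 1.65 in shNT and 1.72, 1.72 and 1.72 in shARF, a difference of 3.51% with groups apart. The shift changed with the treatment of Rps2 and Rps3a1. With copies added, the ratio was 1.58 ± 0.00735 in shNT and 1.51 ± 0.00125 in shARF, a difference of -4.44%, and without Rps2 and Rps3a1 it was 1.91 ± 0.01 and 1.89 ± 0.00516, a difference of -0.815%. The direction of the ratio thus differed between these treatments of the counts.

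Members were spread over 19 chromosomes, and on most of these their changes ran parallel to those of the other genes. On chromosome 14, the 2 members had a median of 0.24 on the log2 scale, beside 0.20 for 599 other genes tested. On chromosome 8, the 2 members had a median of -0.25 and 893 other genes one of -0.27. On chromosome 5, 4 of 5 members were higher and none lower, with a median of 0.15 beside 0.08 for 1146 other genes, and on the X chromosome 3 of 4 members were lower and none higher, with -0.16 beside -0.13 for 583 other genes. Chromosome 7, with 14 members the largest group, had a median of -0.03 beside -0.10 for 1226 other genes, with none higher and 3 lower. These counts of calls stand beside 29.0% higher and 27.4% lower over all genes tested. Other chromosomes went less closely together. Chromosome 12 had the highest median of other genes, 0.28 over 656 genes, beside 0.08 for its members. The members' median was -0.19 beside -0.03 on chromosome 3, and -0.12 beside 0.01 on chromosome 10. Over the 19 chromosomes, the members' median and that of the other genes had a Pearson r of 0.82 and a Spearman rho of 0.76. Over 80 members without Rpl39l, the fold change of a member and the median of its chromosome had r = 0.62 and rho = 0.63. These are descriptions over points that share the same 6 libraries, and chromosomes with 1 or 2 members rest on those genes alone.

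When fold changes were taken relative to the median of the other genes on the same chromosome, 9 members were higher and 14 lower, where 54.3% of all genes tested were called (28.3% higher and 26.0% lower). Rps24 (0.13), Rpl5 (0.12), Rpl9 (0.10) and Rps12 (0.19) were still called higher, and Rpl22l1 (-0.32), Rps26 (-0.34), Rpl27a (-0.14), Rpl37a (-0.18) and Rpl39l (-3.80) lower. Rps29 went from 0.26 to -0.01 and Rps4x from -0.11 to 0.02, and neither was called. Rpl4 (0.03), Rplp0 (0.07), Rps20 (0.34), Rpl10 (-0.08) and Rpl36a (-0.10) lost their calls. Rpl11, which was higher relative to all genes, was lower relative to chromosome 4 (-0.09, edgeR adjusted p = 0.0173), and Rps6 was lower there too (-0.18, edgeR adjusted p = 0.000874). The source of the shifts shared by genes of a chromosome was not tested.

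**Figure D5:**
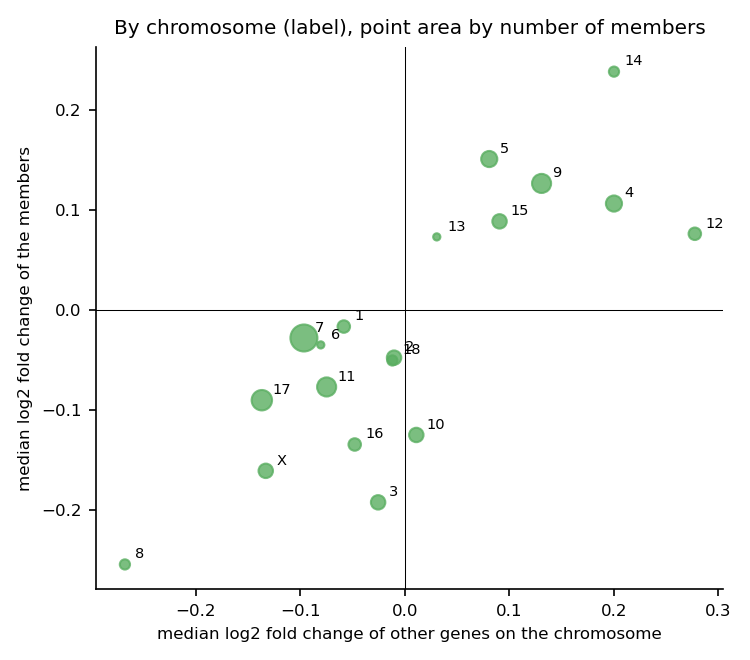
Median log2 fold change of the members on each of 19 chromosomes (vertical) against the median of the other tested genes on that chromosome (horizontal), with point area by the number of members, 1 to 14. Chromosome 14 lies at the upper right and chromosome 8 at the lower left, and both medians have the same sign on all chromosomes but 10.

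Genes that act with the members were counted from lists drawn up for this purpose, to be read beside the 29.0% of all genes tested that were higher and the 27.4% that were lower. Among ribosomal proteins under other names, Rpl36al was higher, while Fau, Rack1 and Rps27rt were not called. Among 18 translation factors and related genes with pyrimidine starts, 10 were higher and 3 lower, with a median of 0.07 on the log2 scale beside -0.004 for all genes tested. Npm1, a nucleolar chaperone, rose from 612 ± 7.04 to 718 ± 9.35 CPM (0.23), Eef1d, a subunit of the elongation factor exchange complex, from 124 ± 1.11 to 157 ± 5.03 CPM (0.34), and Eif3f, a subunit of eIF3, fell from 196 ± 2.29 to 162 ± 2.33 CPM (-0.27). Of 13 genes in the control of pyrimidine-start mRNAs, 7 were higher and 6 lower, so that all were called where 56.4% of all genes were. Akt1, a kinase upstream of mTOR, rose from 237 ± 2.08 to 377 ± 6.63 CPM (0.67, edgeR adjusted p = 9.43e-07). Tsc1 and Tsc2, which together inhibit mTOR, fell from 75.6 ± 2.31 to 47.7 ± 0.69 CPM (-0.67) and from 123 ± 1.77 to 82.2 ± 2.66 CPM (-0.58). Akt1, Tsc1 and Tsc2 are described because they had the smallest p of this list. Also higher were Myc (0.64), Rheb (0.47), Eif4ebp1 (0.45), Larp1 (0.36), Larp4 (0.33) and Mtor (0.20). Also lower were Eif4ebp2 (-0.33), Rps6kb2 (-0.23), Rptor (-0.18) and Rps6kb1 (-0.13).

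Among chaperones and importers of ribosomal proteins and hosts of small nucleolar RNAs, more genes were higher in shARF than lower. Of 12 chaperones and importers, 7 were higher and 1 lower, where 29.0% of all genes were higher and 27.4% lower, with a median of 0.15. The 1 that was lower, Heatr3, went from 128 ± 4.26 to 104 ± 2.71 CPM (-0.31, edgeR adjusted p = 0.000339). Ipo7, an importer of RPL5 and RPL11 among others, rose from 252 ± 3.84 to 416 ± 9.17 CPM (0.72, edgeR adjusted p = 1.19e-06), Ipo5, another importer, from 418 ± 8.06 to 608 ± 5.25 CPM (0.54), and Ltv1, an assembly factor of the small subunit, from 36.7 ± 1.55 to 60.1 ± 0.53 CPM (0.71). Of 9 small nucleolar RNA host genes, 7 were higher and none lower, beside the same 29.0% and 27.4% of all genes, with a median of 0.33. Snhg5 rose from 18.6 ± 0.626 to 38.2 ± 2.46 CPM (1.04, edgeR adjusted p = 1.19e-05), Snhg12 from 22.4 ± 1.3 to 41.9 ± 4.7 CPM (0.90) and Snhg1 from 44.5 ± 0.723 to 59.4 ± 2.03 CPM (0.42). Ribosomal protein genes also host such RNAs, and 30 of the 83 members hold an annotated one. No list was tested as a set.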

How the data were processed

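The authors deposited whole-number counts per gene for 3 shNT and 3 shARF libraries of total RNA depleted of ribosomal RNA, made with a stranded kit per the labels' protocols. HISAT2 2.1.0, StringTie 1.3.2, Picard 2.13.2 and Trim Galore 0.4.1 are named, with the build GRCm38, in the submitters' processing notes, which also list SAMtools 0.1.19 and DESeq2 1.34.0. The sources used here do not say which tool counted, with which strand setting, or how multi-mapping reads were treated. In all, 6 other columns of the table match no sample and were not used. Symbols and coordinates came from GENCODE M21. Counts were tested with edgeR 4.0.16 in R 4.3.3 (TMM, filterByExpr with a minimum count of 10 and total of 15, quasi-likelihood F test, group as sole term, two-sided, Benjamini-Hochberg over 17128 genes, threshold 0.05). CPM are TMM-scaled, and means carry the SD over 3 libraries. Pseudogene transcripts were matched to each member's transcript with BLAST+ 2.17.0 (at least 90% identity over at least 50% of the copy). For Rps20 the reference transcript is long, so its level per kilobase was not used. Alternatives used DESeq2 1.42.0, limma 3.58.1 and the other settings listed at the end. The steps were tested on simulated counts. Members, lists and the rule for named genes (members of paralog pairs, the 8 largest called rises and falls at 5 CPM or more, the extremes per kilobase, and genes with a known role) were chosen with earlier results of these data known; copies were matched after seeing the data. For 1 gene of the related lists, the result is not reported here.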

Additional observations from a re-analysis of the deposited data

How the results depend on the processing

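Counts of members called higher or lower kept within 1.5 times the reported ones under other factors (RLE, upper quartile, factors without the members), other filters, DESeq2, limma-voom and structural RNAs left out. With library sizes alone, 6 were higher and 44 lower, the medians were -0.11 (large) and -0.12 (small), the summed level in shARF was 0.925 times that in shNT, and Rps27a (-0.0878) and Rps6 (-0.0776) turned lower. That scaling moved the median of all genes by -0.0938, and 57.8% of all genes tested were called. At a threshold of 0.01, 11 were lower. The share of all genes at that threshold is not given here, so this count cannot be read against it. Relative to the chromosome median, 9 were higher, and Rpl11 (-0.0939), Rps29 (-0.0132), Rps6 (-0.184), Rpl39 (0.123) and Rps4x (0.0200) turned sign. Alternatives chosen after seeing the data were copies added, which turned Rps2 (0.30), Rps3a1 (0.16) and Rpl3 (0.10), copies of at least 97% identity (0.32, 0.17 and 0.11), and both genes left out. The ratio of large to small subunit in shARF over that in shNT, 1.035 as reported, was 0.956 with copies added, 0.992 without Rps2 and Rps3a1 and 1.023 without the 5 most abundant members. Leaving out 1 library gave 11 to 23 higher and 13 to 19 lower, where 49.9% to 52.2% of all genes tested were called. The 23 came from leaving out shNT replicate 3. The same fits gave medians of -0.05 to 0.01 (large) and -0.04 to 0.02 (small), a summed ratio of 0.973 to 1.011, a subunit ratio of 1.033 to 1.038 and -1.17 to -1.10 for Cdkn2a. Libraries with the same replicate number did not deviate together (r = -0.13, -0.05 and -0.03). With so few libraries per group, these r cannot tell whether equal numbers share a culture or day, which the titles do not say. The replicate block gave 14 higher and 14 lower, where 51.9% of all genes tested were called. In every setting run, Rps24, Rpl9 and Rpl5 were called higher and Rpl39l, Rpl41, Rps26, Rpl27a, Rpl37a and Rpl22l1 lower. The cause of these changes was not tested.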
